A study of Mus musculus with 6 samples.

Results

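The genes described here are 49 cell cycle and proliferation genes. The list was compiled by role from general knowledge, with earlier results of these data known. It holds 15 genes of the G1/S transition and S phase and 22 genes of G2 and mitosis (G2/M). The rest are 6 D-type cyclins and kinases of G1, and 6 inhibitors of cyclin-dependent kinases (CDKs). All 49 were among the 22310 genes of the deposited expression table. They were compared between metastasis-initiating cells (MICs) and the remaining tumor cells (non-MICs) of mouse mammary tumors. In the MMTV-PyMT model, the mouse mammary tumor virus promoter drives the polyoma middle T oncogene in mammary epithelium, and the labels give the tissue as mammary and the genotype as WT, with no treatment other than the sort. Primary tumor cells were cultured in DMEM/F12 with serum, insulin and epidermal growth factor and sorted the day after plating. The Lin− gate left out cells stained for Ter119, CD31 or CD45, which mark erythroid cells, endothelium and leukocytes. CD24+CD90+ cells were collected as MICs and CD24+CD90− cells as non-MICs, and 3 libraries of each were sequenced, numbered 1 to 3 in both groups. The study's methods give about 12 to 18 weeks as the age of the mice from which tumors were taken. The study's figure legends describe the 3 replicates as independent experiments or tumors, without saying which. Whether the 2 libraries of a number share a tumor is not stated. Without a block for the replicate number, p-values measure the spread between these experiments or tumors. With that block, they measure how far the difference within a number varies over the 3 numbers. The blocked fit leaves 2 residual degrees of freedom for each gene.

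In a dividing cell, D-type cyclins activate CDK4 and CDK6, which phosphorylate the retinoblastoma protein and release E2F factors. E2F factors then drive the genes of DNA replication, and a later wave of transcription, carried by MYB proteins and FOXM1 on the MuvB core, which belongs to the repressive DREAM complex in resting cells, drives the genes of mitosis. The INK4 inhibitors bind CDK4 and CDK6, whereas the CIP/KIP inhibitors p21, p27 and p57 act on CDK2 complexes as well. Cyclin D1 is required for mammary tumors driven by several oncogenes, and p16INK4a, p19ARF and p21 are raised by oncogenic stress and by culture.

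The deposited values are read counts per gene that the authors scaled to library size, so that each library sums to between 34999999 and 35000001, and they are called normalised counts here. Whole reads could be recovered from them. MIC replicates 1, 2 and 3 held 32458499, 31467281 and 51759769 such reads, and the non-MIC replicates 33069114, 33126717 and 49904738. Replicate 3 was thus the deepest in both groups, and 1 read was worth between 0.676 and 1.11 normalised counts. A difference is given throughout as MIC minus non-MIC on the scale log2(normalised count + 1), either within a pair of libraries with the same number or as the mean of the 3 pairs. A gene was called at a Benjamini-Hochberg adjusted p under 0.05 over all genes.

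No cell cycle gene separated the 2 populations in the fit of limma without pairing: 0 of 49 genes were called, against 0% of the 22310 genes, and 0 of 49 had an unadjusted p under 0.05, against 322 of all genes (158 higher and 164 lower in MICs). On the recovered reads, edgeR called 0 genes of any kind and DESeq2 called 1, Thy1, the gene of the sorting marker CD90. With the replicate number as a block, limma called 29 genes (0.13%), and Ccnd2, which encodes cyclin D2, was the 1 cell cycle gene among them. At an unadjusted p under 0.05 the blocked fit held 2 cell cycle genes on the higher and 8 on the lower side, 10 of 49, where all genes gave 11.2%. edgeR with the block called 1.41% of all genes and again Ccnd2 alone of the 49, and DESeq2 with the block called 133 genes, of the 49 likewise only Ccnd2.

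The sizes of the differences depended on the pair. Over the 49 genes the median difference was -0.11, with 15 genes higher and 34 lower in MICs, and over all genes it was -0.04, with 10229 higher and 12081 lower. Taken by pair, the median of the 49 genes was 0.03, -0.50 and 0.04 for numbers 1, 2 and 3, where all genes gave -0.02, 0.04 and -0.05. Most of the lower values therefore came from pair 2, in which 40 of 49 genes were lower in MICs, against 21 in pair 1 and 18 in pair 3. In pair 3, the most deeply sequenced, differences ranged from -0.11 to 0.14 over the 15 S phase genes and from -0.07 to 0.38 over the 22 G2/M genes, but from -0.11 to 1.92 over the D-type cyclins and G1 kinases and from -0.56 to 0.43 over the CDK inhibitors. In each of the 3 pairs, the MIC library held the higher value for 3 of 49 genes (Pcna, Cdk1 and Ccnd2), against 12.5% of all genes, and the lower value for 9 (E2f1, Cdc6, Cdt1, Mcm4, Mcm6, Mcm7, Aurkb, Ccnd3 and Cdk2), against 18.8%. Most pair 3 differences lay near 0, as did that of Pcna in pair 2 (0.01), and these sets moved with the scaling. After TMM rescaling the higher set was Ccne2, Cdk1, Cenpa, Ccnd2 and Cdkn1b, and the lower set Cdt1, Mcm4, Aurkb and Cdk2. Cdk1 and Ccnd2 on the higher side and Cdt1, Mcm4 and Cdk2 on the lower side held their direction in all 3 pairs under the deposited scaling, TMM rescaling, quantile normalization and a correction for transcript GC content and length.

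**Figure D1:**
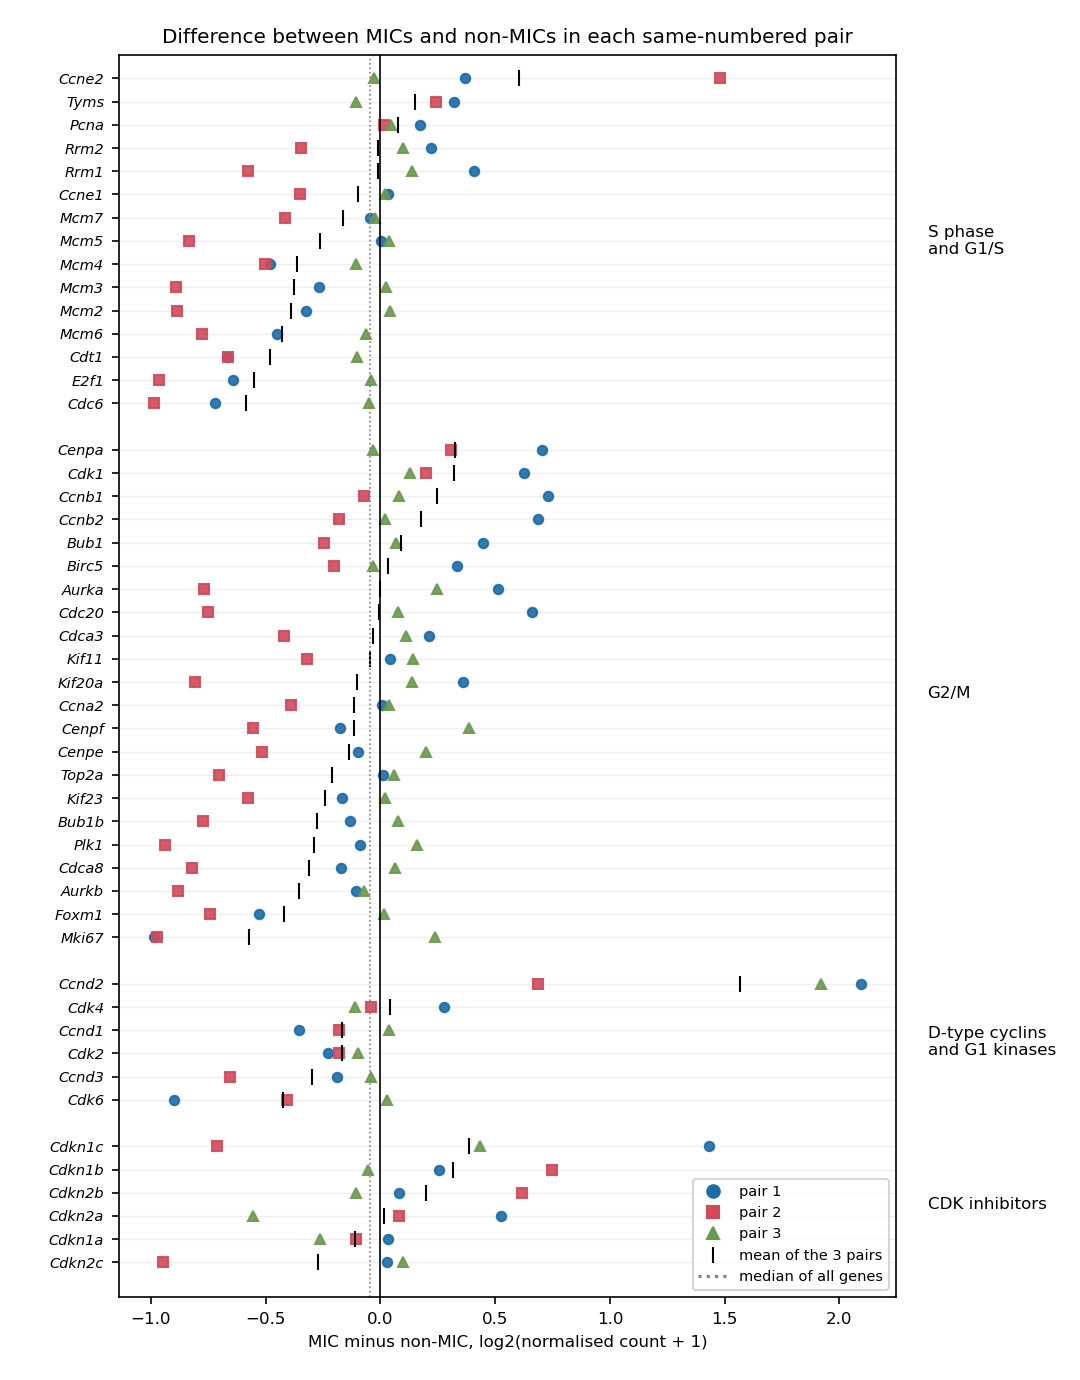
Difference between MICs and non-MICs for the 49 cell cycle genes, by role, on the log2(normalised count + 1) scale. Each symbol is 1 same-numbered pair of libraries, the black tick is the mean of the 3 pairs and the dotted line is the median of all genes (-0.04). Pair 2 lies below 0 for 40 of 49 genes, pair 3 lies close to 0 for most, with signs that change with the scaling for several genes, and Ccnd2 stands to the right in all 3 pairs.

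The libraries differed more by replicate number than by population. The summed normalised count of the 15 S phase genes was 78056, 46087 and 103286 over MIC replicates 1, 2 and 3, against 80543, 64089 and 101748 over the non-MIC replicates. The sum of the 22 G2/M genes was 101528, 51438 and 166638 in the MIC libraries and 96887, 73287 and 154119 in the non-MIC libraries, in the same order. For both sums replicate 2 was lowest and replicate 3 highest in each population, and the groups overlapped. The highest of the 6 libraries belonged to replicate 3 for 21 of 22 G2/M genes and 10 of 15 S phase genes, and MIC replicate 2 was the lowest library for 20 of 22 and 12 of 15. In the table as a whole, replicate 3 held the highest library for 6623 genes and MIC replicate 2 the lowest for 3787 of 22310. The replicate number accounted for a median of 81.3% of a cell cycle gene's sum of squares and the population for 5.58%, where all genes had medians of 66.4% and 9.02%. In bulk libraries, fewer cycling cells and less of these RNAs per cell cannot be told apart.

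Among the genes of G1/S and S phase, the median difference was -0.26, with 3 of 15 higher and 12 lower in MICs, and the pair medians were -0.05, -0.58 and -0.02. Without MIC replicate 2 the median was 0.08, and without both libraries of replicate 2 it was -0.04. In edgeR and DESeq2 without the block it was -0.11 and -0.09. Cdc6, which loads the replicative helicase onto origins, had normalised counts of 979, 485 and 2336 in MIC replicates 1 to 3 and of 1613, 961 and 2420.3 in non-MIC replicates 1 to 3. The MIC library was the lower of each pair (-0.72, -0.99 and -0.05), but both groups spanned a wide range and overlapped (blocked limma, mean -0.59, SE 0.20, adjusted p = 0.417). E2f1, the E2F factor that activates S phase genes, stood at 1192, 898 and 2079 in MICs, against 1859, 1755 and 2137 in non-MICs. Its difference was -0.64, -0.97 and -0.04 in the pairs, and MIC replicate 3 lay above all but 1 of the non-MIC libraries.

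Cdt1, the partner of CDC6 in licensing, was the 1 gene of 49 whose groups did not overlap, where 6.24% of all genes had no overlap. Its normalised counts were 1099.9, 1091 and 1486 in MICs, while non-MICs had 1751, 1729.6 and 1598, and the highest MIC library lay just under the lowest non-MIC library. The difference was -0.67, -0.66 and -0.10 in the pairs (mean -0.48, blocked SE 0.18, adjusted p = 0.418). The replicate number held 6.95% and the population 71.2% of its sum of squares, the largest population share of the 49 genes. Mcm6, a subunit of the replicative helicase MCM2-7, had 6922, 4179.9 and 10178 in MICs, against 9454, 7155 and 10639 in non-MICs. The MIC library was lower in each pair, by -0.45, -0.78 and -0.06, with replicate 3 highest and replicate 2 lowest in both groups.

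Ccne2, encoding cyclin E2, the CDK2 partner at S phase entry, went the other way. It stood at 1211, 2111 and 601 in MICs, while non-MICs had 939, 756 and 614, with MIC replicate 2 far above the other 5 libraries. Its pair differences were 0.37, 1.48 and -0.03 (blocked limma, mean 0.61, SE 0.24, adjusted p = 0.423). Its relative Ccne1 differed by 0.03, -0.35 and 0.02. In pair 2, in which most S phase genes were lower in MICs, cyclin E2 was thus the gene with the largest positive difference, 1.48, and Cdc6 the one with the largest negative difference, -0.99.

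The other 5 MCM subunits resembled Mcm6 in pair 2, with differences of -0.89 for Mcm2, -0.89 for Mcm3, -0.50 for Mcm4, -0.83 for Mcm5 and -0.41 for Mcm7. In pair 1 they lay between -0.48 (Mcm4) and 0.00 (Mcm5), and in pair 3 between -0.11 (Mcm4) and 0.04 (Mcm2 and Mcm5). Rrm1 and Rrm2, the subunits of ribonucleotide reductase, had differences of 0.41, -0.58 and 0.14 and of 0.22, -0.35 and 0.10. Tyms, the thymidylate synthase, had 0.32, 0.24 and -0.11. Pcna, the sliding clamp of DNA polymerases, was nearly level across the groups (0.17, 0.01 and 0.05). Of its transcript sequence, 13.8% is shared with a pseudogene at the length of 75 bases, and 9.49% of Mcm7 with 3 other genes, so reads of these genes may be split by the counting.

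Among the 22 G2/M genes the median difference was -0.11, with 6 higher and 16 lower in MICs, and the pair medians were 0.03, -0.57 and 0.08. The sign of this median is not fixed: it was 0.36 without MIC replicate 2, 0.20 without non-MIC replicate 3, 0.10 without both libraries of replicate 2, and 0.04 and 0.06 in edgeR and DESeq2 without the block. Mki67, the gene of the proliferation antigen Ki-67, had normalised counts of 6551, 4174 and 22654 in MICs, while non-MICs had 12966, 8207 and 19209.6. In pairs 1 and 2 the MIC library held 0.505 and 0.509 times the non-MIC value, and in pair 3 it held 1.18 times that value. MIC libraries were therefore both the lowest and the highest of the 6 (differences -0.98, -0.98 and 0.24, mean -0.57, blocked SE 0.23, adjusted p = 0.423). Top2a, the topoisomerase that disentangles replicated chromosomes and the most abundant G2/M gene, stood at 19240.1, 6438 and 32817 in MICs, against 19082, 10479.9 and 31456 in non-MICs. Its libraries lined up by replicate number, which held 94.1% of the sum of squares, and only pair 2 differed by more than 0.1 on the log2 scale, at -0.70.

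Foxm1, a transcription factor of G2/M genes, had 2061, 1653 and 4856 in MICs, while non-MICs had 2976, 2764 and 4803. Pairs 1 and 2 were lower in MICs (-0.53 and -0.74) and pair 3 was level (0.02). Aurkb, the kinase of the chromosomal passenger complex, stood at 2084, 836 and 2516 in MICs, against 2247, 1544 and 2648 in non-MICs. Its difference was -0.11 and -0.07 in pairs 1 and 3 and -0.88 in pair 2, and it was 0.13 once MIC replicate 2 was left out. The 2 remaining genes with the smallest p-values of this group lay on the other side. Cdk1, the kinase that drives entry into mitosis, was higher in MICs in each pair, at 10390.5, 5934 and 10866 against 6729, 5163 and 9939. The differences were 0.63, 0.20 and 0.13, and the groups overlapped (blocked limma, mean 0.32, SE 0.17, adjusted p = 0.497). Cenpa, the histone H3 variant of centromeres, had 3229.5, 2546 and 3348 in MICs, while non-MICs had 1984, 2056 and 3423, which gave differences of 0.70, 0.31 and -0.03.

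**Figure D2:**
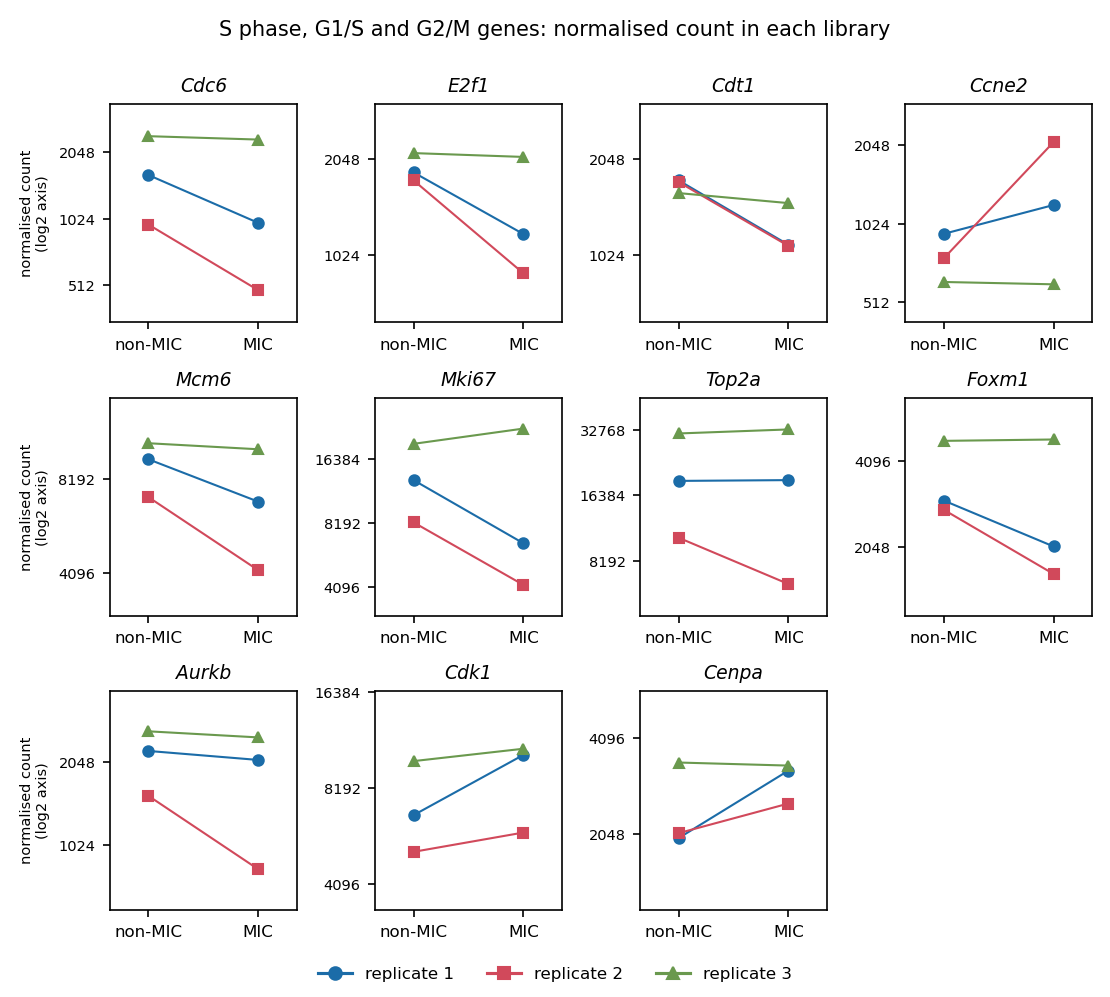
Normalised count in each library, on a log2 axis, for the named S phase, G1/S and G2/M genes, with lines joining the non-MIC and MIC libraries of the same replicate number. Replicate 3 is highest and replicate 2 lowest for most genes, and the MIC and non-MIC values of Cdt1 alone do not overlap (at most 1486 against at least 1598).

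The other 16 G2/M genes had pair 2 differences between -0.94 (Plk1) and -0.07 (Ccnb1), all below 0. In pair 1 they spread in both directions, from -0.18 (Cenpf) to 0.73 (Ccnb1). The mitotic cyclins Ccnb1 and Ccnb2 and Cdc20, an activator of the anaphase-promoting complex, had differences of 0.73, 0.69 and 0.66 there, whereas Ccna2, the cyclin of S and G2, had 0.01. Ccnb1 shares 18.9% of its transcript sequence with 5 other genes, most with a pseudogene. In pair 2 the same genes had -0.07, -0.18, -0.75 and -0.39. The mitotic kinases differed by 0.51, -0.77 and 0.25 for Aurka and by -0.09, -0.94 and 0.16 for Plk1, and the checkpoint kinases by 0.45, -0.25 and 0.07 for Bub1 and by -0.13, -0.77 and 0.08 for Bub1b. The passenger proteins Cdca8 (-0.17, -0.82 and 0.06) and Birc5, known as survivin (0.33, -0.20 and -0.03), and the mitotic entry factor Cdca3 (0.21, -0.42 and 0.11) had no common direction over the pairs. The same was true of the kinetochore proteins Cenpe (-0.10, -0.51 and 0.20) and Cenpf (-0.18, -0.56 and 0.38). The spindle and midzone motors Kif11 (0.04, -0.32 and 0.14), Kif20a (0.36, -0.81 and 0.14) and Kif23 (-0.17, -0.58 and 0.02) were likewise lower in MICs in pair 2 alone or in pairs 1 and 2.

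The D-type cyclins and G1 kinases held the gene with the largest difference of the list. Ccnd2 (ENSMUSG00000000184, chr6:127125162-127152193 on the minus strand of GRCm38) had normalised counts of 6045, 12463 and 234 in MIC replicates 1, 2 and 3 and of 1415, 7739 and 61.0 in non-MIC replicates 1, 2 and 3. Cyclin D2 RNA was higher in the MIC library of each pair, 4.27-fold, 1.61-fold and 3.79-fold, while its level varied far more between replicates, with the highest library 204 times the lowest. The groups overlapped as a result, at 11.35 ± 3.05 in MICs and 9.78 ± 3.53 in non-MICs on the log2 scale (SD, n = 3 each), and limma without the block gave a mean difference of 1.57 with SE 1.96 and an adjusted p of 1.00. With the replicate block, Ccnd2 rose in MICs by 1.57 (SE 0.24, adjusted p = 0.0204 in limma, 7.03e-10 in edgeR and 3.18e-06 in DESeq2, higher in 3 of 3 pairs). The call was absent from the blocked fits without replicate 1 (1.30) and without replicate 3 (1.39) and present without replicate 2 (2.01). Without non-MIC replicate 3, the library with the lowest value, the unblocked difference turned to -0.35.

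Cyclin D1 followed the replicate number. Ccnd1, the most abundant of the 49 genes, stood at 22820.1, 41901 and 27396 in MICs, and the non-MIC libraries held 29218, 47501 and 26716, highest in replicate 2 of both groups, with pair differences of -0.36, -0.18 and 0.04. Ccnd3, the remaining D-type cyclin, had 3075, 1628 and 1945 in MICs, against 3509.6, 2566 and 2002 in non-MICs. The MIC library was the lower of each pair (-0.19, -0.66 and -0.04), but the pair 3 direction was lost after TMM rescaling. In both replicates 1 and 2 the MIC library thus held more Ccnd2 and less Ccnd1 and Ccnd3 RNA than its partner.

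Of the G1 kinases, Cdk4 stood at 12398, 12353 and 9320.1 in MICs, while non-MICs had 10232, 12721 and 10071. Its differences of 0.28, -0.04 and -0.11 had no common direction. Cdk6, which shares its D-type cyclin partners, had 1517, 2418 and 2913 in MICs, against 2829, 3209.8 and 2855 in non-MICs. The non-MIC libraries lay close together and the MIC libraries spread, with MIC replicate 1 lowest (differences -0.90, -0.41 and 0.03, mean -0.43, blocked SE 0.19, adjusted p = 0.432). Cdk2, the partner of cyclins E and A, differed by -0.23, -0.18 and -0.10. As a group the 6 genes had a median difference of -0.17 and pair medians of -0.21, -0.18 and -0.01. The median was -0.34 without non-MIC replicate 3 and -0.03 after the correction for GC content and length.

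None of the 6 CDK inhibitors was called by limma, edgeR or DESeq2, with or without the block, and 0 had an unadjusted p under 0.05. Of all genes, blocked limma called 0.13% and blocked edgeR 1.41%, and 11.2% had an unadjusted p under 0.05 in blocked limma. Their adjusted p-values in blocked limma were at least 0.521, and none had the same direction in all 3 pairs on the deposited scale. Their median difference was 0.11 (4 higher and 2 lower in MICs), and the pair medians were 0.17, -0.01 and -0.08. This median ranged from -0.29 without non-MIC replicate 3 to 0.50 without MIC replicate 3. Cdkn1a, encoding p21, a target of p53, had normalised counts of 9630.3, 15545 and 5405 in MICs, while non-MICs had 9399.6, 16712 and 6478. The libraries ordered by replicate in both groups, with replicate 2 highest and replicate 3 lowest, and the replicate number held 98.1% of the sum of squares (differences 0.03, -0.10 and -0.26). Cdkn1b, encoding p27, stood at 2024, 1768 and 1118 in MICs, against 1694, 1054 and 1160.01 in non-MICs. It was higher in MICs in pairs 1 and 2, by 0.26 and 0.75, and its pair 3 difference of -0.05 turned positive after TMM rescaling.

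Cdkn1c, the imprinted gene of p57, was the weakest of the 49 genes and the one least tied to the replicate number (2.86% of the sum of squares). Its values of 210.3, 99.0 and 131 in the MIC libraries and 77.3, 163 and 96.8 in the non-MIC libraries went both ways (1.43, -0.71 and 0.43). Cdkn2a and Cdkn2b lie next to each other on chromosome 4 (chr4:89274471-89294653 and chr4:89306299-89311039, GRCm38) and encode INK4 inhibitors. Cdkn2a also encodes p19ARF, and the count of the gene does not tell the products apart. It stood at 1195, 3186 and 135 in MICs, while non-MICs had 831, 3013 and 198, a 23.7-fold range over the 6 libraries, of which the replicate number held 98.4%. Cdkn2b, the gene of p15, had 1227, 3327 and 694 in MICs, against 1159.99, 2169 and 748 in non-MICs, again highest in replicate 2 and lowest in replicate 3. Cdkn2c, the gene of p18, had 623, 228 and 406 in MICs, while non-MICs had 612, 441 and 379, level in pairs 1 and 3 and lower in MICs in pair 2 (-0.95). Replicate 2, with the lowest S phase and G2/M sums, thus had the highest Cdkn1a, Cdkn2a and Cdkn2b values in both populations. Replicate 3, with the highest sums, had the lowest values of these genes. Cdkn1b, Cdkn1c and Cdkn2c did not follow this order. Cdkn1b and Cdkn2c were highest in replicate 1 of both populations, and Cdkn1c in MIC replicate 1 and non-MIC replicate 2.

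**Figure D3:**
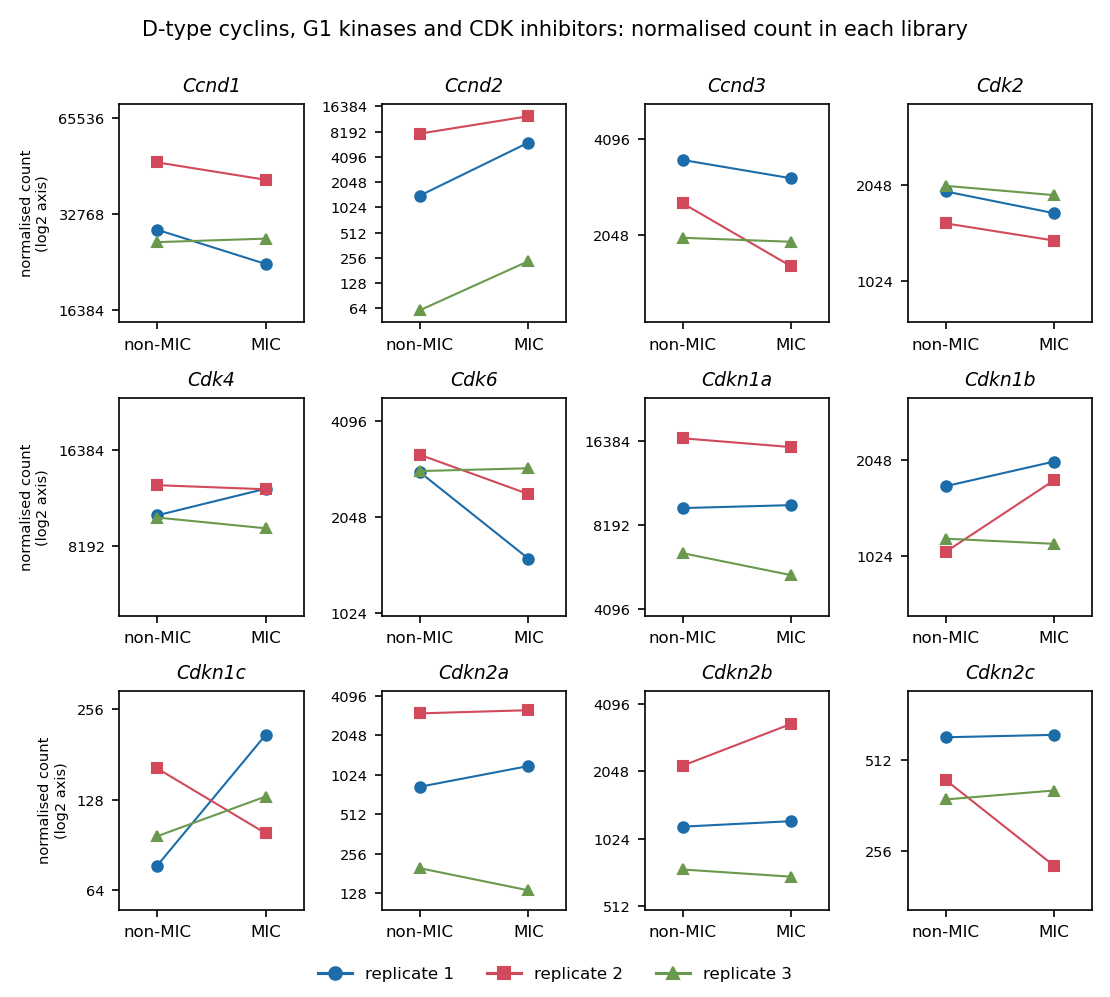
Normalised count in each library, on a log2 axis whose span differs between panels, for the 6 D-type cyclins and G1 kinases and the 6 CDK inhibitors, with lines joining libraries of the same replicate number. The Ccnd2 line rises from non-MIC to MIC in each replicate (from 61.0 to 234 in replicate 3), while Cdkn1a and Cdkn2a order by replicate in both groups.

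Levels of different genes were compared per kilobase of exon, averaged over the 6 libraries. Ccnd1 had 6921 normalised counts per kilobase, above Cdk4 (3442), Rrm2 (3056) and Cdkn1a (2963). Ccnd2 averaged 495 and Ccnd3 279.7 per kilobase, so cyclin D1 was the main D-type cyclin RNA of these cells. Among the inhibitors, Cdkn2a (1217) and Cdkn2b (1118) followed Cdkn1a, Cdkn1b had 323, Cdkn2c 167 and Cdkn1c 63.5. These orders are of averages and did not hold in each library. In non-MIC replicate 1, Ccnd2 (150) lay below Ccnd3 (400) and Cdkn2a (709) below Cdkn2b (835). The same was seen in replicate 3, where Ccnd2 (24.9 in the MIC and 6.48 in the non-MIC library) lay below Ccnd3 (222 and 228), and Cdkn2a (115 and 169) below Cdkn2b (500 and 538) and Cdkn1b (246 and 255). The proliferation antigen Mki67 stood at 1222 per kilobase.

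Wider lists of the same pathways gave the surroundings of these values. Of 46 other S phase genes, 14 were higher and 32 lower in MICs. The median was -0.16 and the pair medians were -0.06, -0.27 and -0.06. In all 3 pairs, 3 were higher and 20 lower, against 12.5% and 18.8% of all genes. These counts were 5 and 9 after TMM rescaling, where 22310 genes gave 3284 and 3668. After the correction for GC content and length they were 3 and 12, where 22161 genes gave 3264 and 3967. None of the 46 was called by limma, edgeR or DESeq2. At an unadjusted p under 0.05, blocked limma held 0 on the higher and 6 on the lower side, 6 of 46 where all genes gave 11.2%. In blocked DESeq2 all 22310 genes gave 1143 and 772 at that p, and this list 3 and 4. The 3 with the smallest blocked p-values were Clspn, a mediator of the replication checkpoint (-0.76, -1.02 and -0.02), Uhrf1, which maintains DNA methylation at forks (-0.70, -1.03 and -0.01), and Chaf1a, a chromatin assembly subunit (-0.57, -1.02 and -0.0032). All 3 were lower in MICs in pairs 1 and 2 and level in pair 3, like Cdc6 and E2f1 (adjusted p between 0.417 and 0.418). Of 54 other G2/M genes, 27 were higher and 27 lower, with a median of 0.01 and pair medians of 0.24, -0.27 and 0.05. In all 3 pairs, 16 were higher and 8 lower. These counts were 13 and 6 after TMM rescaling and 6 and 5 after the correction for GC content and length. At an unadjusted p under 0.05, 7 were on the higher and 4 on the lower side in blocked limma, 11 of 54 against 11.2% of all genes. In blocked DESeq2 all 22310 genes gave 1143 and 772 at that p, and this list 8 and 1. Here the 3 leading genes lay on the higher side.

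Mad2l1, a spindle checkpoint protein, had 4132, 4022 and 3954 normalised counts in MICs, against 2285, 1776 and 3534 in non-MICs. Its MIC libraries were nearly equal and all above the non-MIC libraries. The differences were 0.85, 1.18 and 0.16, with an adjusted p of 0.319 in limma with the block, 0.0247 in edgeR and 0.0393 in DESeq2. Mad2l1 was thus called by the blocked count tests and not by limma. It was the 1 gene called of the 54, where blocked edgeR called 1.41% of all genes and blocked DESeq2 133 of 22310. Cks2, a small CDK-binding protein, likewise did not overlap, at 2023, 1765 and 1547 against 1279.6, 872 and 1443 (blocked limma, adjusted p = 0.417). Of the 54 genes, 4 lay above and 1 below the non-MIC libraries without overlap, where 6.24% of all genes had no overlap. Nuf2, of the NDC80 kinetochore complex, differed by 0.69, 0.55 and 0.20. In MIC replicate 2, the library in which most G2/M genes were lowest, Mad2l1 and Cks2 stood at more than 2 times their non-MIC partner. The correction for GC content and length moved the mean difference of Cks2 from 0.59 to 0.17 and that of Mad2l1 from 0.73 to 0.67. Without non-MIC replicate 2 the unblocked difference of Cks2 was 0.38.

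Of the 34 measured genes that regulate the Rb, E2F and DREAM system, 15 were higher and 19 lower in MICs. Lin54 is the 1 listed gene not used here. The median was -0.07 and the pair medians were -0.21, 0.07 and -0.02. In all 3 pairs, 6 were higher and 8 lower, against 12.5% and 18.8% of all genes. None of the 34 was called by limma, edgeR or DESeq2. Blocked limma held 2 higher and 3 lower at an unadjusted p under 0.05, 5 of 34 against 11.2% of all genes. In blocked DESeq2 all 22310 genes gave 1143 and 772 at that p, and this list 3 and 3. Pkmyt1, a kinase that inhibits CDK1, had 855, 761 and 809 in MICs, while non-MICs had 1672, 1184 and 1014, with no overlap and differences of -0.97, -0.64 and -0.33 (blocked limma, adjusted p = 0.373). Cdk7, the CDK-activating kinase, had 2598, 3622 and 1868 in MICs, against 1627, 1782 and 1828 in non-MICs, again without overlap, though pair 3 differed by 0.03 only. Mybl2, the MYB protein that joins the DREAM core in S phase, differed by -0.50, -1.14 and -0.01. The pocket protein genes Rb1 (-0.39, 0.35 and -0.10) and Rbl1 (-0.20, 0.08 and -0.02) had no common direction, and Myc was lower in MICs by -0.63, -0.22 and -0.08. These last 3 genes were chosen after their values were seen.

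Of 30 p53 target genes, 13 were higher and 17 lower in MICs, with a median of -0.06. The pair medians were -0.15, -0.06 and -0.13. In all 3 pairs, 3 were higher and 13 lower, against 12.5% and 18.8% of all genes. These counts were 3 and 11 after TMM rescaling and 4 and 7 after the correction for GC content and length. None of the 30 was called by limma, edgeR or DESeq2. Blocked limma held 2 on the higher and 5 on the lower side at an unadjusted p under 0.05, 7 of 30 against 11.2% of all genes. In blocked edgeR all 22310 genes gave 1315 and 1306 at that p, and the 30 genes 2 and 3. In blocked DESeq2 all genes gave 1143 and 772, and the 30 genes 2 and 2. Their summed normalised count was 146956, 212379 and 106542 over the MIC libraries and 124572, 178341 and 113567 over the non-MIC libraries, ordered by replicate in the same way as Cdkn1a. The 3 leading genes were Perp, a desmosome component (1.02, 0.66 and 0.18), Pidd1, an adaptor of caspase-2 (-1.20, -0.30 and -0.36), and Fas, the death receptor (1.14, 1.26 and -0.11). Mdm2, the ubiquitin ligase of p53, chosen after its values were seen, had 6079, 22834 and 6720.1 in MICs, while non-MICs had 5518, 17109 and 7922. Its values in replicate 2 of both groups lay above those of the other 4 libraries, as for Cdkn1a.

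Markers of cell types were read beside these results. The gate was visible in the RNA: Thy1 had 1509, 301 and 755 normalised counts in MICs, against 16.9, 21.1 and 12.6 in non-MICs, while Cd24a overlapped between the groups. MIC replicate 2 thus had the lowest Thy1 value of the MICs. All 10 luminal markers were in the table, and their sums were 593032, 213956 and 453886 in MICs, while non-MICs had 702776, 279191 and 429164, with Krt18 the most abundant. Elf5, a luminal progenitor factor, stood at 14.5 and 28.5 in the replicate 2 libraries and between 435 and 1112 in the others. Within pairs it was lower in MICs (-1.31, -0.93 and -1.04), and with the block it fell in edgeR (adjusted p = 0.000449) and DESeq2 (0.00253) but was not called by limma (0.139). Kit, a receptor of luminal progenitors, was called lower by blocked edgeR alone (adjusted p = 0.0209). The 10 basal and myoepithelial markers, with Acta2 the most abundant, summed to 557275, 26938 and 79341 in MICs, against 163279, 24558 and 48331 in non-MICs. With the block, limma called 6 of the 10 higher in MICs (Krt5, Acta2, Myh11, Cnn1, Tagln and Mylk), against 0.13% of all genes called. Their mean differences lay between 1.46 (Mylk, adjusted p = 0.0462) and 2.67 (Tagln, adjusted p = 9.98e-06). Krt14 was the 1 basal marker with a mean below 0 (-0.10), and 0 of the 10 were called without the block. Trp63 was called higher by blocked edgeR alone (adjusted p = 0.00182).

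Markers of other cells were low beside the epithelial ones. The 10 fibroblast markers summed to 2649, 843 and 2048 in MICs, while non-MICs had 1285, 964 and 619, with Col1a2 the most abundant. Their pair medians were 0.10, 0.08 and 1.63, with 5 higher and 5 lower in MICs in pair 1 and 10 higher in pair 3. Col1a2 was higher in MICs in each pair (1.98, 0.58 and 2.65). It was called with the block by edgeR (adjusted p = 7.89e-12) and DESeq2 (2.42e-05) and not by limma (0.0729). Dcn was called higher by blocked edgeR alone (adjusted p = 0.0152). Col1a1 (-0.19, -0.62 and 1.65) and Col3a1 (-0.36, -0.33 and 2.67) were lower in MICs in pairs 1 and 2. Of 12 leukocyte markers 9 were measured, and their sums were 207, 2093 and 408 in MICs, against 228, 1258 and 477 in non-MICs. Lyz2 made up most of the replicate 2 values (1635 and 834). Ptprc, the gene of CD45, and Itgam were at 0 in both replicate 1 libraries and at 12.2 or less elsewhere. Other leukocyte markers were present in every library, with Cd68 between 60.4 and 269 and Csf1r between 55.6 and 112. Csf1r was lowest in MIC replicate 2, unlike the leukocyte sum. The 6 measured endothelial markers summed to between 32.8 and 77.1, with Esam the most abundant and Pecam1, the gene of CD31, at 19.4 or less. Luminal, basal and leukocyte sums all separated replicate 2 from the other replicates, as the S phase and G2/M sums did, and their part in the cell cycle results was not tested.

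The pair differences also moved with the composition of the transcripts. Over the 11141 genes with a mean above the median, the Spearman correlation of a gene's difference with its GC content was -0.20, -0.58 and -0.03 for pairs 1, 2 and 3, and with its length -0.42, -0.12 and 0.01. These are descriptions across genes, which share libraries and are not independent. The cell cycle genes had a median GC content of 48.8%, against 49.6% of those genes. With both properties regressed out, the pair medians of the S phase genes were -0.10, -0.60 and 0.07 and those of the G2/M genes 0.15, -0.67 and 0.15. On the deposited scale the pair 2 medians were -0.58 and -0.57. The part of transcript composition in these values was not tested. For single genes the correction mattered more: the mean difference went from 0.61 to 0.29 for Ccne2, from -0.48 to -0.27 for Cdt1, from -0.55 to -0.32 for E2f1, from -0.42 to -0.16 for Foxm1 and from -0.30 to -0.03 for Ccnd3. TMM rescaling gave -0.01, -0.69 and 0.05 for S phase and 0.07, -0.67 and 0.15 for G2/M, so the small pair 3 median of the S phase genes had another sign than on the deposited scale.

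The promoters of the cell cycle genes were searched for words known from cell cycle promoters: the cell cycle homology region or CHR (TTTGAA or TTCGAA), which DREAM and MYB-MuvB complexes bind, the CCAAT box (CCAAT), bound by NF-Y, and E2F sites (TTTCCCGC, TTTGGCGC, TTTCGCGC or TTTGCCGC), on both strands. The windows run from 250 bases before to 50 after a RefSeq start in GRCm38.p6, and 40 of the 49 genes had one. Entries were missing for Ccne2, Mcm4, Ccna2, Aurkb, Kif20a, Foxm1, Ccnd1, Ccnd2 and Cdkn1c. A CHR and a CCAAT box stood together in the windows of 15 of 18 G2/M genes and 2 of 13 S phase genes, against 8.61% of the 27025 genes of the promoter table. The CHR alone was present in 21.7% and the CCAAT box in 41.1% of that table. An E2F word was present in 6 of 13 S phase genes and 1 of 18 G2/M genes (Cdk1), against 2.61%. Among the 5 CDK inhibitors with windows, a CHR was present in 1, a CCAAT box in 3 and an E2F word in 1 (Cdkn2a). A match is a description of the sequence and not a binding site.

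The 150 bases before the start are shown for 4 genes, chosen after their values were seen: Cdk1 (chr10:69352913-69353062, minus strand) and Cdc20 (chr4:118437344-118437493, minus strand), G2/M genes with both a CHR and a CCAAT box whose mean differences were 0.32 and -0.0047, and Cdc6 (chr11:98908001-98908150, plus strand) and Mcm6 (chr1:128359706-128359855, minus strand), S phase genes with an E2F word whose means were -0.59 and -0.43. Sequences are from RefSeq (GRCm38.p6) and read 5′ to 3′ on the strand of the gene. Capitals mark the CHR and CCAAT box words in Cdk1 and Cdc20 and the E2F words in Cdc6 and Mcm6, on either strand, and overlapping words run together. The E2F word of Cdk1 is left in lower case.
Cdk1: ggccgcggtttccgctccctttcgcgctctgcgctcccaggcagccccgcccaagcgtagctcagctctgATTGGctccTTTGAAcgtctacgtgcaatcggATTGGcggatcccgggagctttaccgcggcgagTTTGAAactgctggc
Cdc20: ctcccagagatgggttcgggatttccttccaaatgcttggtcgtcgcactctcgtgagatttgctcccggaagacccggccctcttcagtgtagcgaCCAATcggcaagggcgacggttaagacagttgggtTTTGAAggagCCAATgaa
Cdc6: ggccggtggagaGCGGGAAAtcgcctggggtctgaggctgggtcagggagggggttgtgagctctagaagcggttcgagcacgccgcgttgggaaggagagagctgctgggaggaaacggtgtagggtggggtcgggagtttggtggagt
Mcm6: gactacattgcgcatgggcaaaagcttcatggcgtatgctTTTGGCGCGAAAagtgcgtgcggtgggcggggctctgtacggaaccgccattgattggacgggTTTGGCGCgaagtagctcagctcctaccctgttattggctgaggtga
The same words stood in genes whose pair differences went different ways. Top2a, with CHR and CCAAT words in its window, differed by 0.01, -0.70 and 0.06, and Mki67, with both as well, by -0.98, -0.98 and 0.24.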

How the data were processed

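RNA was measured in 3 libraries of MICs, sorted as Lin−CD24+CD90+ from MMTV-PyMT tumors, and 3 of non-MICs, sorted as CD90−. Stranded TruSeq mRNA libraries were sequenced, and the deposited signal per gene is a read count that the authors scaled to the library total, for genes expressed in at least 3 of the 6 libraries. The sources differ on the aligner: the study's methods name Bowtie2 and samtools, whereas the submitters' processing notes name STAR, HTSeq and GRCm38 (mm10), and versions are not given in the sources used here. Between 99.99% and 100% of the values were whole multiples, within 0.01 of a read, of what 1 read was worth, which gave the recovered reads. Reads were not collapsed by molecular identifiers. Of 22310 Ensembl identifiers, 22161 had a symbol in the GENCODE annotation of GRCm38.

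Values were tested as log2(value + 1) with limma 3.58.1 in R 4.3.3 (eBayes with a trend, two-sided, no block, no further filter), with p-values adjusted by the Benjamini-Hochberg method over 22310 genes and read at 0.05. A fold on this scale understates changes of low genes. The recovered reads were tested with edgeR 4.0.16 (quasi-likelihood) and DESeq2 1.42.0: without the block they called 0 and 1 genes, and with it 315 and 133. The numbers pair the libraries: departures from the group means correlated at 0.573, 0.668 and 0.746 between libraries of the same number. Between different numbers the average was -0.33. Departures sum to 0 within a group, so this average largely follows from the same-number values and is not separate evidence. Figures and summaries were made with Python 3.11.15, numpy 2.4.6 and pandas 2.3.3. limma and edgeR, with and without the block, and the correction for GC content were tested on simulated data, and DESeq2 was not. The simulated spread between replicates was smaller than that of genes such as Ccnd2 and Cdkn2a.

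The 49 genes, the wider lists and the markers were chosen with earlier results of these data known. The genes named by rule were the CDK inhibitors, D-type cyclins, Cdk4, Cdk6, Mki67, Top2a and the 5 genes of each phase with the smallest p-value in the blocked fit, and, of each wider list, the 3 genes with the smallest. Lists are described by counts and medians, with no test over a list. The result of 1 listed marker is not reported here. Transcript GC content and length were taken from the longest transcript of a gene, and shared sequence from all stretches of 75 bases of its transcripts.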

Additional observations from a re-analysis of the deposited data

How the results depend on the processing

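With the pseudocounts of 0.1 and 10, the filter at the median, TMM rescaling, quantile normalization, limma without a trend, edgeR without the block, and each library left out in turn, 0 genes were called in either direction, as in limma on all libraries. With the replicate block 27 genes were called higher and 2 lower in MICs, of which 1 cell cycle gene, Ccnd2, was higher, and the block changed no other call on the cell cycle genes. The blocked fits without replicate 1 called 9 higher and 2 lower, without replicate 2 they called 48 and 11, and without replicate 3 they called 0. edgeR with the block called 232 higher and 83 lower, DESeq2 called 1 higher without the block, and 110 higher and 23 lower with it. A GC and length correction with the replicate block, chosen after seeing the data, called 49 higher and 8 lower. Ccnd2 was the 1 cell cycle gene called higher in the blocked fits of edgeR, DESeq2, the GC and length correction (1.68) and the set without replicate 2. The cause of these shifts was not tested.

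With 1 library left out, the median difference of the S phase genes ranged from -0.60 to 0.083, of the G2/M genes from -0.46 to 0.36, of the D-type cyclins and G1 kinases from -0.34 to -0.071, and of the CDK inhibitors from -0.29 to 0.50. Of single genes, Cdkn1a ranged from -0.48 to 0.28, Cdkn2a from -0.98 to 1.30, Cdkn2b from -0.42 to 0.71, Cdkn2c from -0.62 to 0.11, Ccnd1 from -0.42 to 0.088, Ccnd2 from -0.35 to 3.30, Cdk4 from -0.029 to 0.18, Top2a from -0.73 to 0.44 and Aurkb from -0.66 to 0.13. Others kept their direction and moved in size: Mki67 ranged from -1.28 to -0.059, Cdc6 from -1.17 to -0.039, Mcm6 from -0.74 to -0.094, E2f1 from -0.88 to -0.28, Foxm1 from -0.88 to -0.11, Cdk6 from -0.63 to -0.16, Ccnd3 from -0.56 to -0.086, Ccne2 from 0.17 to 1.08 and Cdk1 from 0.098 to 0.60. In the blocked fit without replicate 1, the median of the CDK inhibitors was -0.16, and Cdkn1c (-0.14), Cdkn2a (-0.24) and Cdk4 (-0.077) turned lower. Without replicate 2, Cdkn2a (-0.017) and Cdkn2b (-0.013) turned lower and Cdkn2c (0.063) and Top2a (0.037) higher. Without replicate 3 the median of the CDK inhibitors was 0.33. DESeq2 without the block gave 0.24 for that median and 0.0083 for Top2a. The GC and length correction gave -0.031 for the D-type cyclins and G1 kinases and -0.020 for Cdkn2a, and it brought Chaf1a to -0.24, Mybl2 to -0.30, Cdk7 to 0.33, Pkmyt1 to -0.43, Fas to 0.45, Pidd1 to -0.35, Cdkn1a to -0.054, Cdkn2c to -0.084, Ccnd1 to -0.033 and Cdk4 to 0.068. The cause was not tested for any of these values.

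With 3 libraries a group and a spread between replicates larger than most differences, a failed test does not show that values are equal. A fit without 1 pair rests on 2 pairs. In fits that leave out 1 library, a group holds 2 libraries and the replicate differences no longer cancel, so its differences mix replicate and population. Counting error matters most where reads are fewest. Cdkn1c had between 73 and 195 reads a library, and Ccnd2 had 87 reads in non-MIC replicate 3.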
